A study of Mus musculus with 6 samples.

Results

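This account follows 10 mouse genes that act with KAP1 in chromatin silencing, chosen by name from what their proteins are known to do. They are Setdb1, Atf7ip, Cbx1, Cbx3, Cbx5, Chd3, Chd4, Mphosph8, Dnmt1 and Uhrf1, 10 of the 37991 genes in the count files. All 10 had an Ensembl identifier in the files and passed the filter on low counts, as did 17558 genes in all. RNA from liver tissue was sequenced in 3 groups of 2 libraries, and all the mice had eaten a high-fat diet for 27 weeks and were killed at 35 weeks of age. The tumours were primary tumour tissue of TgAlbCreKap1lox mice, in which the albumin promoter drives Cre recombinase in hepatocytes and Cre inactivates Trim28, the gene that encodes KAP1. The KAP1-deleted livers were liver tissue of the same 2 mice, so tumour 1 shared its mouse with KAP1-deleted liver 1, and tumour 2 with KAP1-deleted liver 2. The control livers came from 2 TgAlbCre mice, which carry the Cre transgene alone. Lineages in which the albumin promoter is not active, such as macrophages and endothelial cells, would keep an intact Trim28 gene, which was not measured here.

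KAP1, also called TRIM28, is brought to DNA by zinc finger proteins of the KRAB family and builds repressed chromatin there, above all on endogenous retroviruses and imprinted loci. It does so through partners. SETDB1 methylates lysine 9 of histone H3, and ATF7IP keeps SETDB1 stable and in the nucleus. The HP1 proteins bind the methylated lysine, and the NuRD complex removes histone acetyl groups and moves nucleosomes. The HUSH complex extends silencing over retrotransposons and transgenes, and DNMT1 with UHRF1 copies DNA methylation onto the new strand when DNA is replicated. Uhrf1 transcripts are known to be scarce in resting hepatocytes and to increase when liver cells divide.

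Trim28 was low in all 4 libraries of the mice with the deletion. The tumours had 5.22 and 4.59 CPM, the KAP1-deleted livers 5.06 and 6.02 CPM and the control livers 32.5 and 35.9 CPM. Here CPM is counts per 1000000 counts in genes, with library sizes scaled by the TMM method. Trim28 fell in KAP1-deleted liver against control liver (log2 fold change -2.63 ± 0.19, edgeR adjusted p = 0.00393). The libraries held 39723997 to 62178752 counts in genes, and reads not assigned to a gene made up 33.1% to 36.7% of the total in tumours, against 20.9% to 27.6% in the livers. The first principal component, with 59.6% of the variance, separated the tumours from the 4 livers. Hepatocyte markers summed to 27149 and 44677 CPM in tumours 1 and 2 and 76083 and 84334 CPM in KAP1-deleted livers, against 83158 and 92263 CPM in control livers. Of 8 listed markers 7 were tested, and all 7 were below 0 in tumour against either liver. By edgeR 1 was called lower against KAP1-deleted liver (6.64% of all tested genes) and 2 against control liver (7.76%). In these bulk samples fewer cells of a type and less RNA per cell cannot be told apart.

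The DNA shown here is a promoter window of the 1 gene of the 10 that passed a test, Uhrf1, beside one of its partner Dnmt1, which did not. Uhrf1 has 2 annotated starts with a window in the table and Dnmt1 has 3, and for each gene the window shown is the only one with a match, and the others hold 0 matches. Both windows shown hold letters of the kind that E2F factors, regulators of S phase genes, are known to bind. Each window runs from 250 bases before to 50 bases after an annotated start (RefSeq, GRCm38.p6). The Uhrf1 window is chr17:56304063-56304362 on the plus strand, and the Dnmt1 window is chr9:20952574-20952873 on the minus strand. Capitals mark the matches to TTTCCCGC, TTTCGCGC, TTTGCCGC or TTTGGCGC on either strand.
Uhrf1: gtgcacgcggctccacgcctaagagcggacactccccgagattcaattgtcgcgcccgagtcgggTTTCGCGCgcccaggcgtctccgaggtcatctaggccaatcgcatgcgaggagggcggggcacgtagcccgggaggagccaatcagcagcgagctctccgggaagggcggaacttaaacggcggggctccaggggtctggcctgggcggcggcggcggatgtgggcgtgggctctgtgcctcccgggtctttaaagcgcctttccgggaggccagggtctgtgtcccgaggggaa
Dnmt1: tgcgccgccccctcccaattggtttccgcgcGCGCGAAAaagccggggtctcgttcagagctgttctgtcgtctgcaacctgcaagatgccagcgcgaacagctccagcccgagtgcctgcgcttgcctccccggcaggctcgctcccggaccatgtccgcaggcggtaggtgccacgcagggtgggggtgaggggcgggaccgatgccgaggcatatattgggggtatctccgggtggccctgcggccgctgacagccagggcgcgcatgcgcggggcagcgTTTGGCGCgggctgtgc
The Uhrf1 match begins 185 bases before the start, and the Dnmt1 matches begin 219 bases before it and 33 bases after it. The table held windows of 9 of the 10 genes, 15 windows in all, and 3 of those 9 genes had a match, the third being Cbx3. A match was present in 744 of all 32851 windows (2.26%) and in 704 of 27025 genes (2.6%). Of the replication genes followed below, 12 had windows and 6 of them a match, including Mcm5 and Mcm6, and of the proliferation markers 8 had windows and 1 of them a match, Cdk1. A match describes the letters in the window and was not tested as a binding site.

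None of the 10 genes was called where Trim28 fell. In KAP1-deleted liver against control liver 0 of the 10 passed the test in either direction, while 0.239% of all tested genes were called higher and 0.0968% lower. DESeq2 and limma-voom called 0 of the 10 as well, and 2 of the 10, Chd3 and Uhrf1, had an unadjusted edgeR p under 0.05, as did 5.44% of all tested genes. The median log2 fold change of the 10 was -0.15, beside 0.00 over all tested genes, and 8 of the 10 values were below 0 (49.4% of all tested genes). For 8 of the 10 genes the 95% interval of the change lay within 2-fold in either direction, as it did for 59.9% of all tested genes. A p above the threshold does not show that a level was equal, and the intervals give what 2 libraries a group allow.

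In tumour against KAP1-deleted liver 1 of the 10 was called higher, Uhrf1, and 0 were called lower, where 4.8% of all tested genes were called higher and 6.64% lower. The median size of the change, without its sign, was 0.12 on the log2 scale for the 10 genes and 0.41 for all tested genes. In 9 of the 10 genes the interval lay within 2-fold, against 42.5% of all tested genes. The median sizes in KAP1-deleted over control liver were 0.17 for the 10 and 0.18 for all tested genes. In no comparison were the genes matched for level, and a filter at a mean of 5 CPM kept 9245 genes. In tumour against control liver 0 of the 10 passed the test, and 6.15% of all tested genes were called higher and 7.76% lower. There, 3 of the 10 had an unadjusted edgeR p under 0.05, against 29.9% of all tested genes, and DESeq2 and limma-voom called 0 of the 10. The 3 comparisons share libraries, so they are not independent of each other. The summed level of the 10 genes was 299.4 and 275.9 CPM in tumours 1 and 2 and 263.8 and 253.3 CPM in KAP1-deleted livers, against 298.7 and 308.3 CPM in control livers. Abundant genes weigh most in this sum. Chd3, which was not called, had a mean of 40.8 CPM in tumours, 35.6 in KAP1-deleted livers and 69.2 in control livers.

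**Figure D1:**
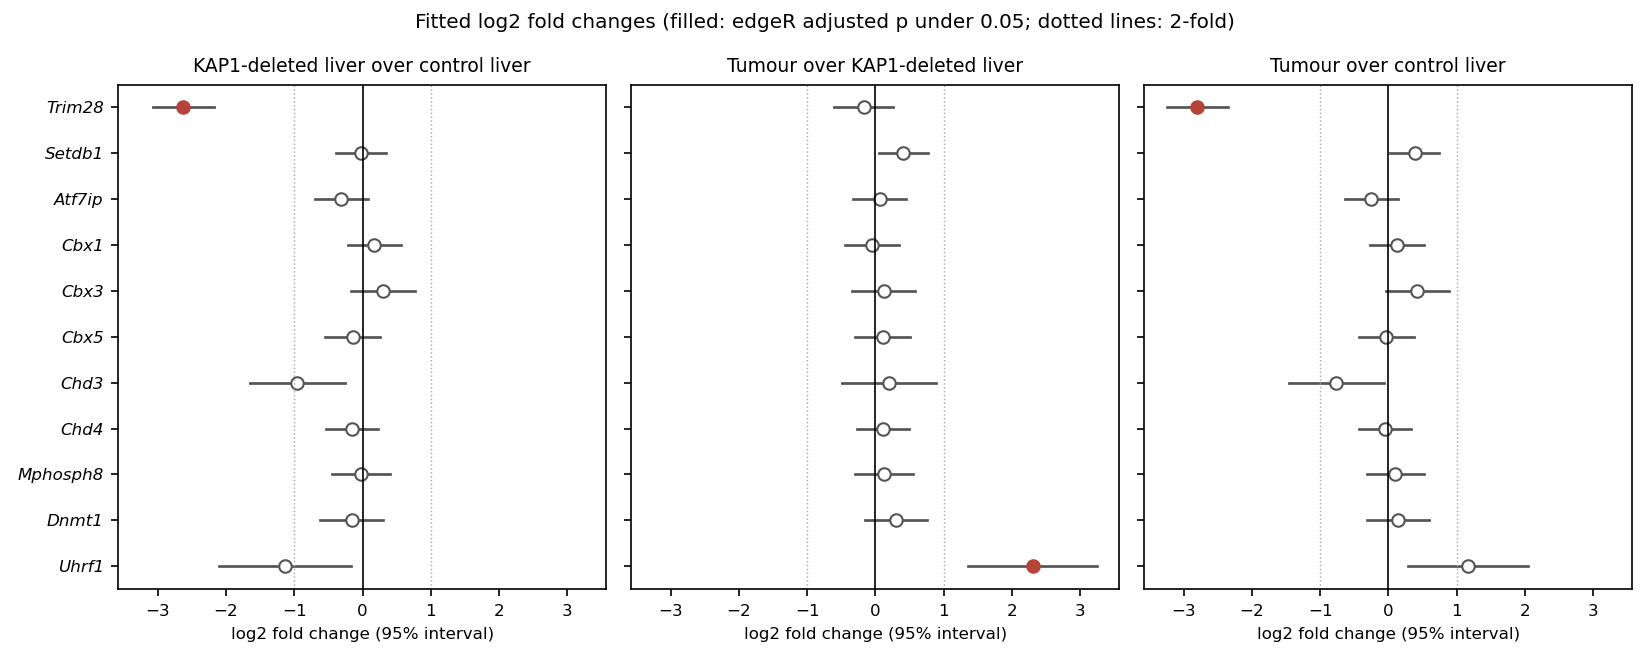
Fitted log2 fold change (x axis, 0 is no change, dotted lines at 2-fold) of Trim28 and the 10 genes in the 3 comparisons, with points for the edgeR estimate and lines for its 95% interval. Filled points passed an adjusted p of 0.05: Trim28 in both comparisons with control liver, and Uhrf1 in tumour over KAP1-deleted liver at 2.30.

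Setdb1 (chr3:95323525-95357202, minus strand, GRCm38), the histone H3 lysine 9 methyltransferase that KAP1 recruits, had the narrowest interval of the 10 between the non-tumour livers. It stood at 31.7 and 29.8 CPM in tumours 1 and 2 and 24.0 and 22.4 CPM in KAP1-deleted livers, against 23.5 and 23.7 CPM in control livers. Both tumours lay above all 4 livers, and the KAP1-deleted livers lay on either side of the control livers. The log2 fold change of KAP1-deleted over control liver was -0.02 ± 0.16 (95% interval -0.39 to 0.34, edgeR adjusted p = 1). Tumour over KAP1-deleted liver gave 0.41 ± 0.16, a fold of 1.33 with an interval of 1.03 to 1.70, and an adjusted p of 0.132 by the same test. Tumour over control liver gave 0.38 ± 0.16 with an edgeR adjusted p of 0.146, so neither passed the threshold. Within a mouse, the tumour exceeded the liver by a log2 ratio of 0.41 in mouse 1 and 0.41 in mouse 2. Some 87.1% of the 31-base words of Setdb1 transcripts occurred in no other gene of the reference, and Gm4349 held most of the rest. Of its exon bases 1.09% overlapped Cers2 on the other strand.

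Atf7ip (chr6:136506167-136610862, plus strand, GRCm38), the cofactor of SETDB1, was highest in control liver. Its level was 16.9 and 16.6 CPM in tumours and 16.2 and 16.0 CPM in KAP1-deleted livers, against 21.4 and 18.5 CPM in control livers. Both control libraries lay above the 4 libraries of KAP1-deleted mice. The log2 fold change was -0.31 ± 0.17 in KAP1-deleted over control liver (edgeR adjusted p = 1) and -0.25 ± 0.17 in tumour over control liver (edgeR adjusted p = 0.360). Neither passed the test.

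The HP1 genes passed no test in any of the 3 comparisons. Cbx5 (chr15:103191544-103239816, minus strand, GRCm38), which encodes HP1 alpha, stood at 47.4 and 52.2 CPM in tumours and 46.1 and 46.3 CPM in KAP1-deleted livers, against 56.2 and 45.7 CPM in control livers. Cbx1 (chr11:96789127-96808640, plus strand, GRCm38), which encodes HP1 beta, stood at 16.3 and 18.3 CPM in tumours and 17.5 and 18.3 CPM in KAP1-deleted livers, against 14.9 and 16.8 CPM in control livers. The control livers spanned every other library for Cbx5. For Cbx1 both KAP1-deleted livers lay above both control livers, with a log2 fold change of 0.17 ± 0.17 (edgeR adjusted p = 1).

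Cbx3 (chr6:51470360-51483704, plus strand, GRCm38), which encodes HP1 gamma, a form also found over transcribed genes, stood at 28.3 and 31.1 CPM in tumours and 29.4 and 25.3 CPM in KAP1-deleted livers, against 25.6 and 18.6 CPM in control livers. Both tumours lay above both control livers, while the KAP1-deleted livers overlapped each of the other groups. The log2 fold change of Cbx3 was 0.43 ± 0.20 in tumour over control liver (95% interval -0.04 to 0.89, edgeR adjusted p = 0.204) and 0.31 ± 0.20 in KAP1-deleted over control liver (edgeR adjusted p = 1). Of the 31-base words of Cbx3, 90.0% were unique, and most of the others lay in Gm49164.

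Divided by the length of the annotated exons, the HP1 transcripts could be compared with each other. Cbx3 made up 34.2% and 34.0% of the HP1 sum per kb in tumours 1 and 2 and 34.7% and 30.9% in KAP1-deleted livers, against 30.6% and 25.6% in control livers. Cbx5 made up 38.2% and 38.0% in tumours and 36.3% and 37.7% in KAP1-deleted livers, against 44.6% and 41.9% in control livers. Both control libraries had a larger Cbx5 share than any of the 4 libraries of KAP1-deleted mice, also with the length of the longest transcript. Their Cbx3 shares were smaller than in those 4 libraries by exon length, with control liver 1 close to KAP1-deleted liver 2, but with the longest transcript control liver 1 (40.9%) lay above KAP1-deleted liver 2 (40.0%). The Cbx1 shares of the control livers, 24.9% and 32.5%, spanned all other libraries. A share depends on the levels of all the HP1 genes. In CPM, control liver 2 had the lowest Cbx5 level of the 6 libraries, 45.7, and also the lowest Cbx3 level, 18.6. The shares were not tested, and with the longest transcript Cbx3 instead of Cbx5 held the largest mean share in every group.

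**Figure D2:**
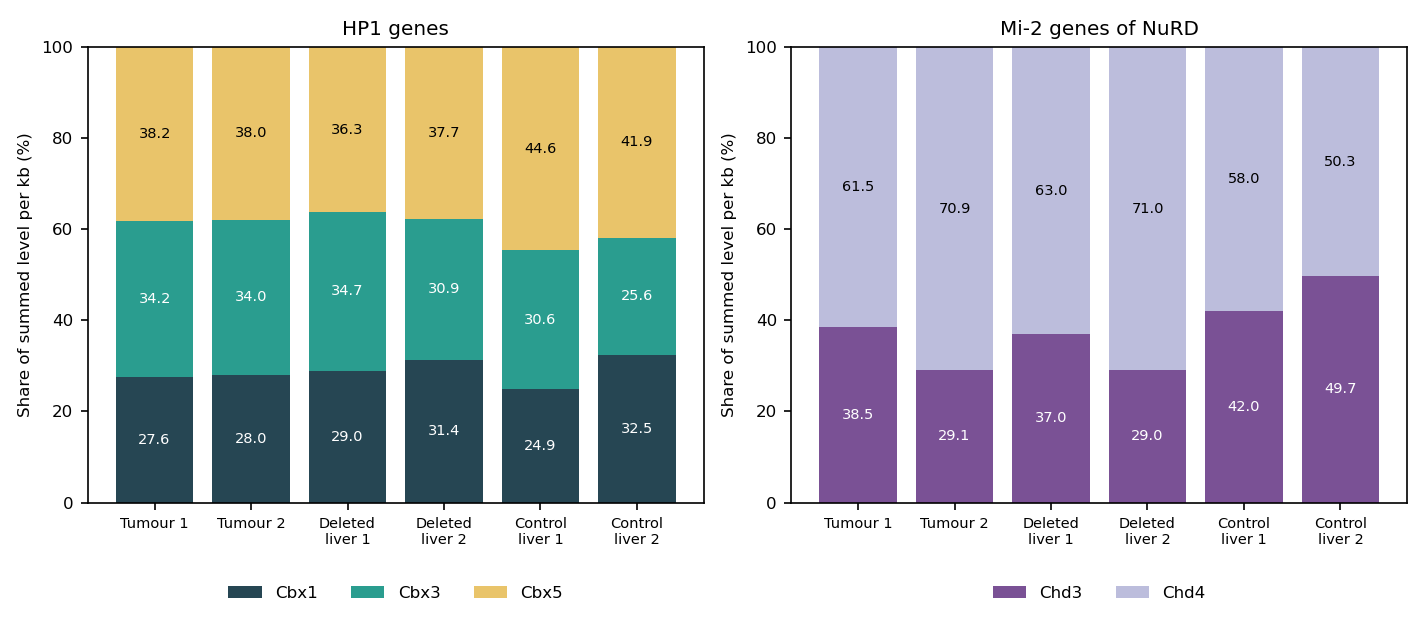
Share of the summed level per kb (y axis, percent) held by each HP1 gene (left) and each Mi-2 gene (right) in the 6 libraries, with lengths from all annotated exons. Cbx5 held 36.3% to 38.2% in the 4 tumour and KAP1-deleted libraries and 44.6% and 41.9% in the control livers, and Chd3 held 29.0% to 38.5% in those 4 libraries and 42.0% and 49.7% in the control livers.

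NuRD contains an Mi-2 ATPase, encoded by Chd3 or Chd4, and human KAP1 is known to bind the Chd3 product directly. Chd3 (chr11:69343273-69369406, minus strand, GRCm38) stood at 51.5 and 30.0 CPM in tumours 1 and 2 and 40.7 and 30.6 CPM in KAP1-deleted livers, against 56.6 and 81.7 CPM in control livers. Both control livers lay above the 4 libraries of KAP1-deleted mice, and replicates differed by up to 0.78 on the log2 scale, the widest gap of the 10 genes. The log2 fold change of KAP1-deleted over control liver was -0.96 ± 0.30, or 0.515 of the control level (interval 0.317 to 0.836), with an unadjusted p of 0.0134 and an edgeR adjusted p of 0.546. Tumour over control liver gave -0.76 ± 0.30 (interval -1.46 to -0.07) with an edgeR adjusted p of 0.135. Neither passed the threshold, and both did with no filter on low counts, where the edgeR adjusted p of Chd3 was 0.00244 and 0.00875. In KAP1-deleted over control liver that setting left the log2 fold change at -0.97 and narrowed its standard error to 0.23. It called 354 genes higher and 217 lower of 27238 there, against 42 and 17 of 17558 with the filter. Without control liver 2 the log2 fold change was -0.69 in KAP1-deleted over control liver and -0.47 in tumour over control liver, and without tumour 2 the second was -0.44.

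Chd4 (chr6:125095981-125130591, plus strand, GRCm38), the other Mi-2 gene, had the highest mean CPM of the 10 in each group. It stood at 78.3 and 69.6 CPM in tumours and 65.9 and 70.9 CPM in KAP1-deleted livers, against 74.2 and 78.6 CPM in control livers, and its log2 fold change lay between -0.16 and 0.11 in the 3 comparisons. Chd3 made up 38.5% and 29.1% of the Mi-2 sum per kb in tumours and 37.0% and 29.0% in KAP1-deleted livers, against 42.0% and 49.7% in control livers. The ranges did not overlap between control liver and the other groups.

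Mphosph8 (chr14:56668248-56697430, plus strand, GRCm38) encodes the chromodomain subunit of HUSH that reads methylated lysine 9. It stood at 15.4 and 17.7 CPM in tumours and 15.33 and 14.98 CPM in KAP1-deleted livers, against 17.0 and 13.9 CPM in control livers. The control libraries spanned the values of both other groups, apart from tumour 2. The log2 fold change of KAP1-deleted over control liver was -0.02 ± 0.18 with an interval of -0.45 to 0.40 (edgeR adjusted p = 1). In words of 31 bases 90.8% of Mphosph8 was unique, and Gm16973 shared the rest.

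Dnmt1 (chr9:20907209-20959888, minus strand, GRCm38), the maintenance DNA methyltransferase, stood at 11.4 and 9.14 CPM in tumours 1 and 2 and 8.52 and 8.20 CPM in KAP1-deleted livers, against 8.72 and 9.93 CPM in control livers. Both tumours and both control livers lay above both KAP1-deleted livers. The log2 fold change of Dnmt1 was 0.30 ± 0.20 in tumour over KAP1-deleted liver (edgeR adjusted p = 0.350), -0.16 ± 0.20 in KAP1-deleted over control liver (edgeR adjusted p = 1) and 0.14 ± 0.20 in tumour over control liver (edgeR adjusted p = 0.675).

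Uhrf1 (chr17:56303321-56323486, plus strand, GRCm38), which binds half-methylated DNA and brings DNMT1 to it, was the scarcest of the 10. It had 150 and 78 counts in tumours 1 and 2 and 12 and 21 counts in KAP1-deleted livers, against 22 and 55 counts in control livers. In CPM this was 2.07 and 1.49 in tumours and 0.273 and 0.445 in KAP1-deleted livers, against 0.635 and 0.934 in control livers. The 3 groups did not overlap, with tumours highest and KAP1-deleted livers lowest.

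Uhrf1 rose in tumour over KAP1-deleted liver, with a log2 fold change of 2.30 ± 0.41, a fold of 4.93 (interval 2.56 to 9.46) and an edgeR adjusted p of 0.0133. In mouse 1 the log2 ratio of tumour to liver was 2.93, and in mouse 2 it was 1.74. The call was lost without KAP1-deleted liver 1 (log2 fold change 1.98, edgeR adjusted p = 0.0743) and without tumour 1 (2.03, edgeR adjusted p = 0.0721). Over all the alternatives its adjusted p ran from 2.28e-06 to 0.0743, and a filter at a mean of 5 CPM removed the gene. Against control liver the tumours gave 1.16 ± 0.38 (interval 0.29 to 2.04) with an edgeR adjusted p of 0.0811, and KAP1-deleted liver gave -1.14 ± 0.42 (interval -2.10 to -0.17) with an edgeR adjusted p of 0.742. Neither passed. The sequence of Uhrf1 was the least unique of the 10, with 75.8% of its words found in no other gene and 21.9% shared with Gm5648, which had 0 counts in all 6 libraries.

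**Figure D3:**
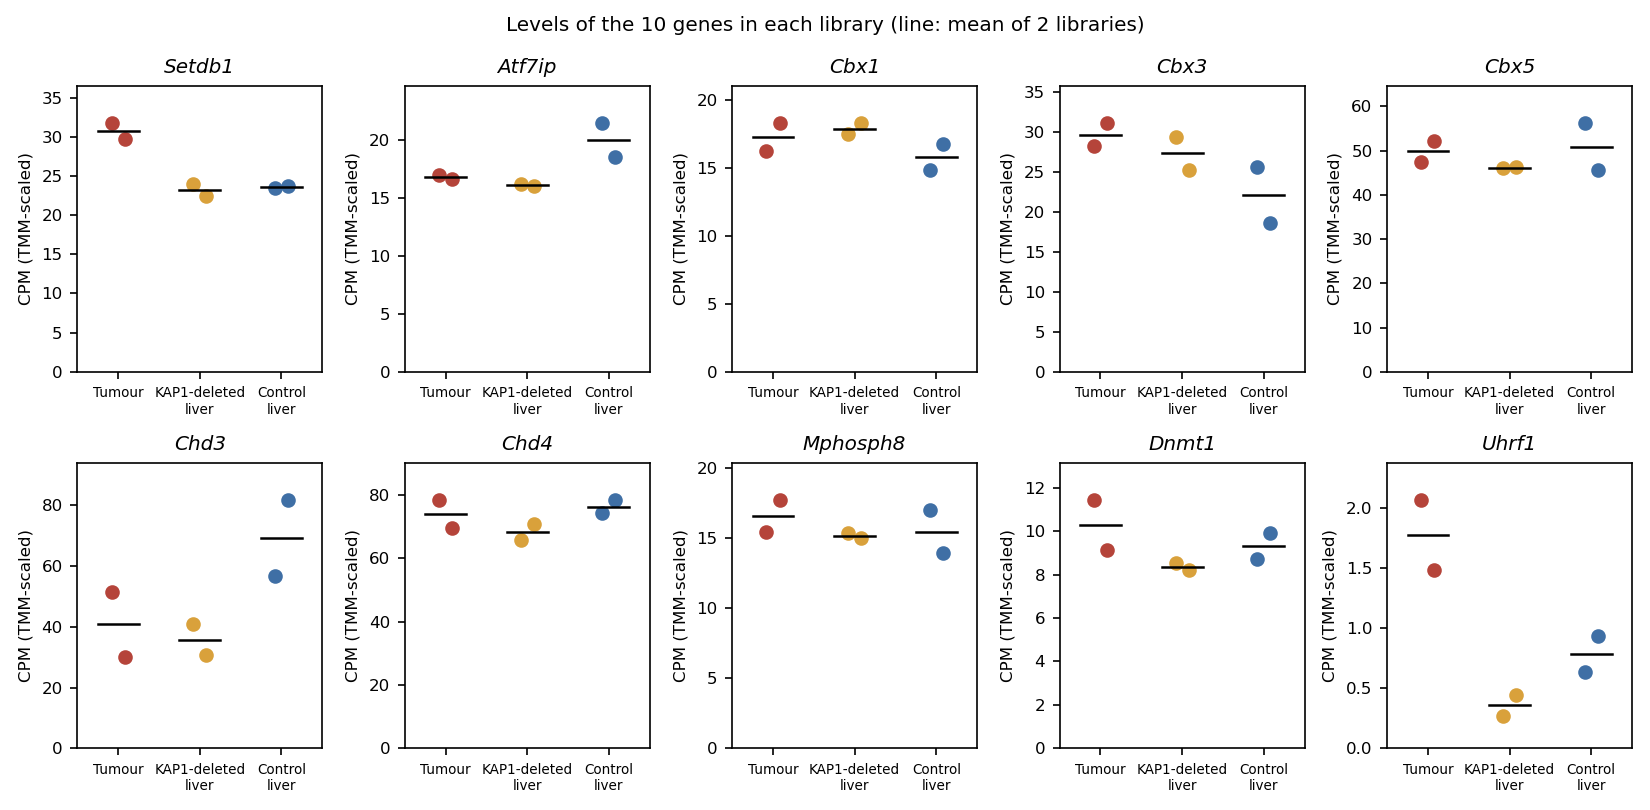
CPM with TMM scaling (y axis, from 0, a scale of its own in each panel) of each of the 10 genes in the tumours, KAP1-deleted livers and control livers, with 1 point per library and a line at the mean of the 2. The groups of Uhrf1 do not overlap, both Chd3 control points lie above the other 4, and both Setdb1 tumour points lie above the 4 livers.

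Markers of dividing cells differed in the same comparison. Of 10 proliferation markers 8 were called higher in tumour than in KAP1-deleted liver, as were 4.8% of all tested genes. The median log2 fold change of the 10 markers was 2.44. Their summed level was 57.7 and 86.8 CPM in tumours 1 and 2 and 11.4 and 15.4 CPM in KAP1-deleted livers, against 10.998 and 15.7 CPM in control livers. Mki67, the gene of the Ki-67 antigen, rose by 2.33 ± 0.30 on the log2 scale (edgeR adjusted p = 0.00475). Top2a, a topoisomerase of dividing cells, rose by 2.55 ± 0.34 (edgeR adjusted p = 0.00482). The mitotic cyclin genes rose as well, Ccnb1 by 3.57 ± 0.45 (edgeR adjusted p = 0.00409) and Ccnb2 by 2.67 ± 0.39 (edgeR adjusted p = 0.00707). All 4 kept the call when each library was left out in turn. Tumour 1 had more Uhrf1 than tumour 2 and a smaller proliferation sum. The replication genes followed below summed to 99.7 and 100.3 CPM in tumours 1 and 2. A link between these levels was not tested.

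Fewer replication genes were called. Of 13 tested, with a median log2 fold change of 0.45 in tumour over KAP1-deleted liver, 3 were called higher in tumour over KAP1-deleted liver and 1 in tumour over control liver. The shares of all tested genes called higher were 4.8% in the first comparison and 6.15% in the second. Mcm6, a subunit of the replicative helicase, had 10.7 and 7.71 CPM in tumours and 3.97 and 3.60 CPM in KAP1-deleted livers, against 4.65 and 4.41 CPM in control livers. It rose by 1.28 ± 0.23 over KAP1-deleted liver (edgeR adjusted p = 0.0140), a call lost without KAP1-deleted liver 1 (0.0628), KAP1-deleted liver 2 (0.107) or tumour 1 (0.0652). Mcm5, of the same helicase, rose by 1.26 ± 0.27 (edgeR adjusted p = 0.0249), a call lost without the same libraries (adjusted p = 0.108, 0.193 and 0.110). Over control liver Mcm6 rose by 1.02 ± 0.23 (edgeR adjusted p = 0.0254), a call lost without control liver 2 (0.0842) or tumour 1 (0.110). In KAP1-deleted over control liver, where Uhrf1 was lowest in KAP1-deleted liver, edgeR, DESeq2 and limma-voom called 0 of the 13 replication genes. There 11 of the 13 values were below 0 (49.4% of all tested genes), with a median log2 fold change of -0.26. Of the 13, 4 had an unadjusted edgeR p under 0.05 (5.44% of all tested genes). Mcm5 was one of them, at -0.86 ± 0.27 (edgeR adjusted p = 0.538). The proliferation markers had 6 of 10 values below 0 there, a median of -0.15 and 0 genes under an unadjusted p of 0.05. The part of cell division in the Uhrf1 values was not tested.

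The genes nearest to Uhrf1 in pattern were found over the 6 libraries, by the root mean square difference of log2 CPM centred on each gene's mean, among 12576 genes with a symbol and a mean CPM of at least 1. They were Chac1, an enzyme that breaks down glutathione, at 0.20, Eif4e3, a member of the cap-binding family, at 0.30, and Hist1h1b, a linker histone gene, at 0.30. Chac1 had 2.53 and 2.06 CPM in tumours and 0.477 and 0.763 CPM in KAP1-deleted livers, against 0.837 and 1.17 CPM in control livers. Like Uhrf1 it was lowest in KAP1-deleted liver, which follows from its choice by likeness over these same 6 libraries.

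Per kb of exon, the 10 genes could be ordered by level. Chd4 was highest in each group, at a mean of 9.22 CPM per kb in tumours, 8.53 in KAP1-deleted livers and 9.53 in control livers. Next, in tumours, came Cbx5 (5.53 CPM per kb), Cbx3 (4.95), Chd3 (4.83), Mphosph8 (4.62), Setdb1 (4.49) and Cbx1 (4.04). The replicates of neighbours overlapped between Cbx3, Chd3, Mphosph8 and Setdb1, and not between Cbx5 and Cbx3 or between Setdb1 and Cbx1. Those of Chd3, 6.10 and 3.56 CPM per kb in tumours 1 and 2, spanned the replicates of every other gene from Cbx5 to Cbx1, so its place is not settled. Dnmt1 (1.40), Atf7ip (0.810) and Uhrf1 (0.418) followed, each below the replicates of the gene before it. This order rests on the length used. With the length of the longest transcript Cbx3 (10.1 CPM per kb) and Cbx1 (7.27) came next after Chd4 in tumours, ahead of Cbx5 (5.66), and Atf7ip (2.08) stood above Dnmt1 (1.75). In control livers Chd3 was second, at 6.70 and 9.68 CPM per kb, beside 9.26 and 9.80 CPM per kb of Chd4, so that 1 of the Chd3 replicates lay within the Chd4 range and the other below it. Trim28 itself was at 1.18 CPM per kb in tumours, 1.33 in KAP1-deleted livers and 8.23 in control livers, where 1 gene of the 10, Chd4, had a higher mean.

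The median log2 gap between the 2 libraries of a group was 0.17 for the 10 genes in tumours, 0.08 in KAP1-deleted livers and 0.25 in control livers, beside 0.26, 0.24 and 0.36 over all tested genes. The groups did not overlap for 6 of the 10 in tumour against KAP1-deleted liver, with tumours above in each (28.7% of all tested genes). They did not overlap for 1 gene above (16.7% of all tested genes) and 5 genes below (14.6%) in KAP1-deleted against control liver, and for 3 above (26.5%) and 2 below (29.9%) in tumour against control liver.

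The wider machinery was followed in 8 lists of 84 genes, 78 of them tested. In KAP1-deleted over control liver edgeR called 0 of the 78, with 1 at an unadjusted p under 0.05, and DESeq2 called that 1 gene, Mbd1. In tumour over KAP1-deleted liver 4 were higher and 2 lower, and in tumour over control liver 4 were higher and 3 lower. As shares of the 78 these counts can be read against 4.8% higher and 6.64% lower over all tested genes in tumour over KAP1-deleted liver, and 6.15% and 7.76% in tumour over control liver. The median log2 fold change was 0.01, 0.13 and 0.19 in the 3 comparisons, beside 0.00, -0.03 and -0.02 over all tested genes. The HUSH list (4 tested), the NuRD list (12), the list of H3.3 and heterochromatin chaperones (12) and the SUMO pathway (15), whose conjugation to KAP1 is needed for it to bind SETDB1, had 0 calls in any comparison by edgeR or limma-voom. DESeq2 called Smchd1 and Fam208b higher in tumour over both livers and Senp6 higher in tumour over control liver, 3 genes named after their values were seen. Of the 43 tested genes of these lists 0 had an unadjusted edgeR p under 0.05 in KAP1-deleted over control liver, 5 (11.6%) in tumour over KAP1-deleted liver and 9 (20.9%) in tumour over control liver, where the shares of all tested genes were 5.44%, 29.1% and 29.9%.

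**Figure D4:**
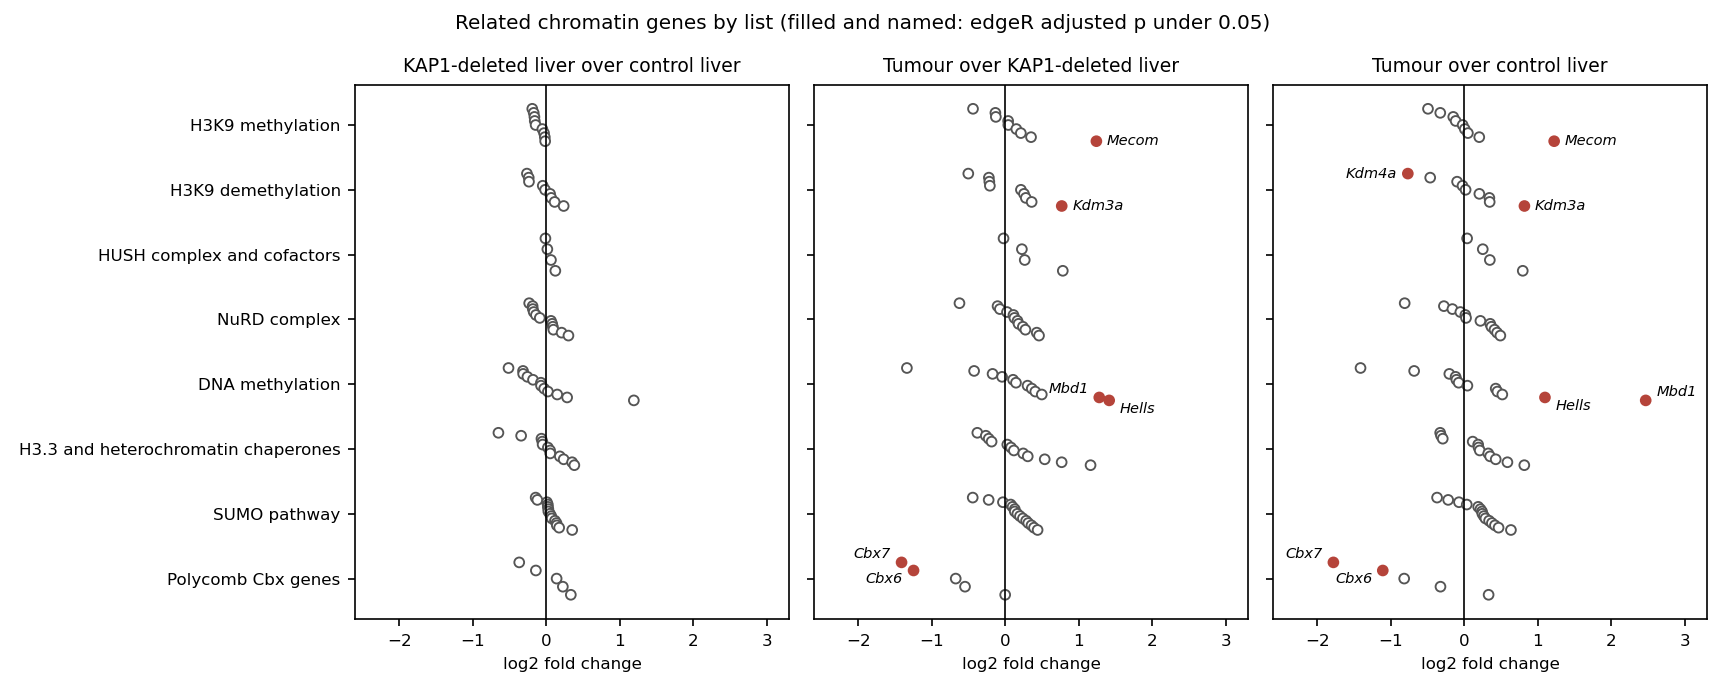
Fitted log2 fold change (x axis) of the tested genes of the 8 related lists (rows) in the 3 comparisons, 1 point per gene, spread vertically for legibility. Filled, named points passed an adjusted p of 0.05, and Mbd1 at 2.47 in tumour over control liver is the farthest from 0.

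Among genes for lysine 9 methylation 1 of 9 tested was called, higher in tumour than in either liver. The shares of all tested genes called higher were 4.8% over KAP1-deleted liver and 6.15% over control liver. Mecom, whose protein has a PR domain and is known as a transcription factor of blood stem cells, had 4.35 and 3.43 CPM in tumours and 1.84 and 1.46 CPM in KAP1-deleted livers, against 1.93 and 1.43 CPM in control livers. It rose by 1.24 ± 0.29 over KAP1-deleted liver (edgeR adjusted p = 0.0318), a call lost without any 1 of the 4 libraries compared (adjusted p = 0.0568 to 0.243). Over control liver it rose by 1.22 ± 0.29 (edgeR adjusted p = 0.0298), a call lost without control liver 2 (0.123), tumour 1 (0.129) or tumour 2 (0.0538).

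Among the demethylases of lysine 9, Kdm3a, which removes mono- and dimethyl marks, had 38.3 and 41.1 CPM in tumours and 24.2 and 22.5 CPM in KAP1-deleted livers, against 26.3 and 18.8 CPM in control livers. It rose over KAP1-deleted liver by 0.77 ± 0.20 (edgeR adjusted p = 0.0454) and over control liver by 0.82 ± 0.20 (0.0332). The first call was lost without any 1 of the 4 libraries compared (adjusted p = 0.133 to 0.262) and the second without any library but control liver 1 (0.0512 to 0.133). Kdm4a, which removes trimethyl marks, fell by 0.77 ± 0.20 in tumour against control liver (edgeR adjusted p = 0.0430), with 18.5 and 13.3 CPM in tumours and 26.3 and 27.9 CPM in control livers. That call too was lost without any library but control liver 1 (0.0508 to 0.183).

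In the DNA methylation list Mbd1 and Hells were called. Mbd1, a methyl-CpG binding protein known in human cells to bind SETDB1 and ATF7IP, had 134 and 171 CPM in tumours and 49.0 and 77.1 CPM in KAP1-deleted livers, against 24.8 and 30.5 CPM in control livers. The 3 groups did not overlap. Mbd1 rose by 2.47 ± 0.27 in tumour over control liver (edgeR adjusted p = 0.00174), a call kept when each library was left out in turn. It rose by 1.28 ± 0.26 in tumour over KAP1-deleted liver (edgeR adjusted p = 0.0209), a call lost without KAP1-deleted liver 1 (0.100), tumour 1 (0.0594) or tumour 2 (0.0998). In KAP1-deleted over control liver it gave 1.19 ± 0.26 with an edgeR adjusted p of 0.190, and a DESeq2 adjusted p of 0.00912.

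Hells, a chromatin remodeller needed for DNA methylation of repeats, had 5.15 and 5.90 CPM in tumours and 2.18 and 1.97 CPM in KAP1-deleted livers, against 3.20 and 2.003 CPM in control livers. It rose by 1.41 ± 0.28 over KAP1-deleted liver (edgeR adjusted p = 0.0202), a call lost without any 1 of the 4 libraries compared (0.0634 to 0.131). Over control liver it rose by 1.10 ± 0.28 (edgeR adjusted p = 0.0385), a call lost without any library but control liver 1 (0.0591 to 0.150).

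The chromodomain genes of Polycomb, relatives of the HP1 genes that bind lysine 27 of histone H3, included 2 that fell of 5 tested. These 2, Cbx6 (chr15:79823896-79834688) and Cbx7 (chr15:79915807-79971119), lie near each other on the minus strand (GRCm38). The shares of all tested genes called lower in tumour were 6.64% against KAP1-deleted liver and 7.76% against control liver. Cbx7 had 0.994 and 1.24 CPM in tumours and 2.82 and 3.11 CPM in KAP1-deleted livers, against 5.05 and 2.67 CPM in control livers. It fell by 1.41 ± 0.35 against KAP1-deleted liver (edgeR adjusted p = 0.0388), a call lost without any 1 of the 4 libraries compared (0.0849 to 0.171), with upper-quartile scaling (0.0608) and in limma-voom (0.0512). Against control liver it fell by 1.78 ± 0.35 (edgeR adjusted p = 0.0160), a call lost without tumour 1 (0.0921) or tumour 2 (0.0547). Cbx6 had 1.09 and 1.22 CPM in tumours and 2.54 and 2.94 CPM in KAP1-deleted livers, against 2.02 and 2.94 CPM in control livers. It fell by 1.25 ± 0.29 against KAP1-deleted liver (edgeR adjusted p = 0.0324), a call lost without any 1 of the 4 libraries compared (0.0875 to 0.199). Against control liver it fell by 1.11 ± 0.29 (edgeR adjusted p = 0.0420), a call lost without any library but control liver 1 (0.0732 to 0.194). Of the exon bases of Cbx6 5.31% lay in Npcd, on the same strand.

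Other settings ended some of these calls. With upper-quartile scaling the edgeR adjusted p in tumour over control liver was 0.0606 for Kdm4a and 0.0502 for Cbx6. With a fit of the 2 groups alone it was 0.0522 for Kdm3a, 0.0660 for Kdm4a, 0.0592 for Hells and 0.0828 for Cbx6. At a mean CPM of at least 5 it was 0.0507 for Kdm3a over KAP1-deleted liver and 0.0523 for Kdm4a against control liver.

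Summed markers of other liver cells, apart from lymphocytes, were lower in tumours than in KAP1-deleted livers. Of 8 macrophage markers 4 were called lower in tumour than in KAP1-deleted liver, and they summed to 283 and 399 CPM in tumours and 630 and 644 CPM in KAP1-deleted livers, against 609 and 575 CPM in control livers. The 7 endothelial markers summed to 200 and 172 CPM in tumours, against 269 and 272 CPM in KAP1-deleted livers. Stellate cell markers summed to 144 and 212 CPM in tumours and 224 and 293 CPM in KAP1-deleted livers, lymphocyte markers to 33.0 and 68.3 CPM in tumours and 30.9 and 39.8 CPM in KAP1-deleted livers, and cholangiocyte markers to 2.94 and 21.4 CPM in tumours and 27.8 and 34.2 CPM in KAP1-deleted livers. In tumour over KAP1-deleted liver 1 of 7 endothelial and 1 of 7 stellate cell markers were called lower, as were 6.64% of all tested genes. There 0 of 8 lymphocyte and 0 of 4 cholangiocyte markers tested were called. Of the stellate cell markers 3 had a log2 fold change above 0 and 4 below, and of the lymphocyte markers 6 above and 2 below. None of these marker genes was at 0 in any library. Their part in the tumour values of the silencing genes was not tested.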

How the data were processed

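The authors deposited integer read counts for each Ensembl gene. Per the submitters' processing notes they used TopHat, HTSeq 0.6.1 and build mm9. Per the labels, total RNA went into a stranded TruSeq protocol, and all libraries carry 1 batch label. Their extraction text names cell lines, while each sample is labelled a tissue. No source used here gives the annotation or the strand setting, so genes that overlap on opposite strands may share counts. HTSeq's entries for unassigned reads were kept out of library sizes.

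The GRCm38 annotation gave symbols (32919 of 37991 identifiers), exon lengths and 31-base words. Testing used edgeR 4.0.16 (R 4.3.3) after filterByExpr by group (a minimum count of 10 and a minimum total of 15), with TMM scaling and a robust quasi-likelihood fit, with 1 mean per group over all 6 libraries and 3 residual degrees of freedom. P-values were two-sided, with Benjamini-Hochberg adjustment over 17558 genes and a threshold of 0.05. Values after ± are standard errors. The quasi-likelihood fit shares information on spread across genes, so p-values and intervals rest on more than the 3 residual degrees of freedom. The script was tested on simulated data. DESeq2 1.42.0 and limma-voom (limma 3.58.1) were alternatives.

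The mouse codes in the labels pair each tumour with the KAP1-deleted liver of its number. Across genes the paired deviations from group means had r = 0.18, and an alternative fit used the mouse as a block. Replicate counts were farther apart than sampling noise allows, with a chi-square of 82.6 to 321 per degree of freedom. With 2 libraries a group, the p-values reflect no more than the spread among these libraries.

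The 10 genes and the lists were chosen with earlier results of these data known. Of the lists, 151 of 152 genes matched by symbol. Named are the 10 genes, Trim28, up to 4 called genes per list and comparison by adjusted p (mean CPM at least 1), and the 3 genes nearest to a called one in pattern.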

Additional observations from a re-analysis of the deposited data

How the results depend on the processing

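The 30 log2 fold changes of the 10 genes were recomputed under 16 other settings, 457 values in all, of which 432 kept their direction and side of the threshold. Leaving out each library in turn moved the fold change of Uhrf1 in tumour over KAP1-deleted liver between 1.98 and 2.69 and its count of calls between 0 and 1. The replicate block by mouse gave Uhrf1 2.29 there, 1 call of the 10, and changed no other call among them. With no filter on low counts 1 of the 10 was lower in KAP1-deleted than in control liver (Chd3), and 1 was higher (Uhrf1, adjusted p = 0.0289) and 1 lower (Chd3) in tumour than in control liver. Over the 27238 genes of that setting 354 were called higher and 217 lower in KAP1-deleted against control liver. In tumour against control liver 1801 were called higher and 2314 lower. The main fit over 17558 genes called 42 and 17 in the first comparison and 1080 and 1363 in the second. With a mean CPM of at least 5 the count in tumour over KAP1-deleted liver was 0, since that filter removes Uhrf1.

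Values near 0 changed sign. Cbx1 in tumour over KAP1-deleted liver was 0.0019 with DESeq2-type factors, 0.0447 with upper-quartile scaling, 0.0043 at a mean CPM of 5, 0.0016 in DESeq2, and -0.15 to 0.0285 without each library. Cbx5 in tumour over control liver was 0.0017, 0.0398 and 0.0020 with those factors, that scaling and DESeq2, and -0.18 to 0.11 without each library. Chd4 there was 0.0302 with upper-quartile scaling and -0.14 to 0.0267 without each library, Mphosph8 -0.0389 to 0.24 and Dnmt1 -0.0338 to 0.285. In KAP1-deleted over control liver, leaving out a library gave Setdb1 -0.0687 to 0.0237, Cbx5 -0.30 to 0.0130 and Mphosph8 -0.18 to 0.12, and Chd3 in tumour over KAP1-deleted liver ran from -0.25 to 0.52. Upper-quartile scaling moved the median of all genes by 0.09 in tumour over KAP1-deleted liver and put 52.0% of the called genes on the higher side, against 42.0%.

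Of the 78 related genes, 1 was higher in KAP1-deleted than in control liver with no filter and in DESeq2. Those settings called 354 of 27238 and 152 of 17558 tested genes higher. In tumour over KAP1-deleted liver the higher count was 1 at a mean CPM of 5 and 0 to 4 without each library, and the lower count 1 with upper-quartile scaling or limma-voom, 0 at a mean CPM of 5 and 0 to 2 without each library. In tumour over control liver the higher count was 2 at a mean CPM of 5, 7 in DESeq2, 2 with the 2 groups alone and 1 to 7 without each library, and the lower count 1 with upper-quartile scaling, 0 at a mean CPM of 5, 1 with the 2 groups alone and 0 to 3 without each library. With the longest transcript as length, Cbx1 made up 31.5% of the HP1 sum in tumour and 34.1% in KAP1-deleted liver, Cbx3 44.0%, 42.2% and 37.5% in tumour, KAP1-deleted and control liver, and Cbx5 24.5%, 23.7% and 28.9%. Low counts limit Uhrf1, which had 12 in its lowest library.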
